A study of Rattus norvegicus with 6 samples.

Results

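This account covers 9 rat liver genes of glucose synthesis and amino acid breakdown, Pck1, Fbp1, Pc, Sds, Tat, Got1, Got2, Tdo2 and Hpd. They were taken by symbol: every probe set on the array whose only annotated gene was one of the 9 was used. This gave 16 of the 8740 probe sets that are not array controls, and 9 of the 4736 genes that such probe sets name singly. A probe set is a group of short probes that together report 1 transcript. Of the 16, 14 were among the 5244 probe sets bright enough to be tested for a diet effect, and the other 2 (1 for Sds and 1 for Got2) are described by their values alone.

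The RNA came from livers of male Sprague Dawley rats that received liquid diets by total enteral nutrition, that is, by tube, for 3 weeks. Control rats received 5% corn oil and 187 kcal a day, scaled to metabolic body weight. The rats of the group named NASH, for nonalcoholic steatohepatitis, received 70% corn oil and 220 kcal on that basis, so fat content and energy supply changed together. The share of the diet that was not corn oil changed with them, and its make-up is not given here. Each group has 3 arrays (Affymetrix, of an early rat genome design, 1 per sample), and whether these are 3 separate animals is not stated in the labels. The p-values thus measure the spread between samples, which may be technical. Below, the word liver stands for the sample on 1 array and not for a known separate animal. No age, time of day or feeding state at sampling is stated in the sources used.

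The liver makes glucose from lactate and amino acids when food does not supply it. Pyruvate carboxylase (Pc) turns pyruvate into oxaloacetate, phosphoenolpyruvate carboxykinase (Pck1) carries it on in the step that most limits the pathway, and fructose-1,6-bisphosphatase (Fbp1) acts further along. Serine dehydratase (Sds), tyrosine aminotransferase (Tat), the cytosolic and mitochondrial aspartate aminotransferases (Got1 and Got2), tryptophan 2,3-dioxygenase (Tdo2) and 4-hydroxyphenylpyruvate dioxygenase (Hpd) release carbon or nitrogen from amino acids. Pck1, Sds, Tat and Tdo2 are textbook targets of glucagon, acting through cyclic AMP, or of glucocorticoids, and insulin lowers Pck1.

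None of the 14 tested probe sets passed the test between the diets. The feature that stood out was the spread among the Control livers: Sds, Got1 and Pck1 were far higher in Control 2 than in Control 1 and Control 3. The high Sds of Control 2 was already known when the members were proposed. For Pck1, the level of Control 2 was that of the NASH livers. For Sds and Got1, Control 2 stood alone above all other livers of both groups. Pc hardly varied at all, and Fbp1 and the brightest Got2 probe set varied mainly among the NASH livers.

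The promoters of Pck1, Got1 and Got2 are shown because Pck1 and Got1 were high in the same Control liver while Got2, the mitochondrial partner of Got1, was not. The sequences are from RefSeq on build GRCr8, where 7 of the 9 genes had an entry and Sds and Pc had none. Each runs from 250 bases before the annotated gene start to 50 bases after it, 5′ to 3′ on the gene's strand. In all, 6 short motifs were searched on both strands: the core of the cyclic AMP response element (ACGTCA), the glucocorticoid receptor half-site (TGTTCT), a forkhead core (GTAAACA), the clock E-box (CACGTG), the D-box (TTANGTAA) and the CCAAT box (CCAAT). Capitals mark the matches.
Pck1, chr3:182348322-182348621, plus strand: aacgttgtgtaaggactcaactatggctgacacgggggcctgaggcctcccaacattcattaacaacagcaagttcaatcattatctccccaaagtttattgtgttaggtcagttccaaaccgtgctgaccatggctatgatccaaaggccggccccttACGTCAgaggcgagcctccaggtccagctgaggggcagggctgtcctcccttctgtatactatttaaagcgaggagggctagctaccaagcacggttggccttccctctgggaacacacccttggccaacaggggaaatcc
Got1, chr1:252329822-252330121, minus strand: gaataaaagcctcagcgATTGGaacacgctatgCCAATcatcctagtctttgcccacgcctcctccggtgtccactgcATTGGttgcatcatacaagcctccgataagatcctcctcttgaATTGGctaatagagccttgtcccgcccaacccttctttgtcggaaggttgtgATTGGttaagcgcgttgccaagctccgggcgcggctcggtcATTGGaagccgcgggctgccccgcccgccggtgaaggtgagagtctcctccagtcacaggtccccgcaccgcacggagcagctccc
Got2, chr19:9180178-9180477, plus strand: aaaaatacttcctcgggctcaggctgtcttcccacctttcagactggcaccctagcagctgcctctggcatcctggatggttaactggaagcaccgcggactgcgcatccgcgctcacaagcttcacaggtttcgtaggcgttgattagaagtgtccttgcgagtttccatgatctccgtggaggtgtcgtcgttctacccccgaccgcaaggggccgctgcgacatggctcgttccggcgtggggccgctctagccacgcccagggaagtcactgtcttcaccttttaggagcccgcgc

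Among the 7 promoters, the cyclic AMP element core was found in Pck1 only, starting 91 bases before the gene start, and 7.94% of all 33469 promoters of this length in the table hold these letters. The Got1 window held 6 CCAAT boxes, the Tat window 3 and the Fbp1 and Tdo2 windows 1 each. At least 1 is found in 37.5% of all promoters and at least 6 in 14 promoters, or 0.0418%. The Got2 window held none of the 6 motifs, nor did that of Hpd. The glucocorticoid half-site, the forkhead core, the E-box and the D-box were in none of the 7 windows, against 20.7%, 3.78%, 6.42% and 2.24% of all promoters. A match describes letters in a window and does not show that a factor binds there. The lack of a match says nothing of the sequence outside the window.

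All levels in what follows are log2 values of quantile-normalized signal plus an offset of 2.28, unless called deposited, and all differences are NASH minus Control on that scale. Differences have a standard error and a 95% confidence interval from limma, with Benjamini-Hochberg adjusted p-values over the 5244 probe sets. Levels of different probe sets are not comparable, since each probe binds its target with its own strength. At an adjusted p under 0.05, 0 of the 14 member probe sets were called, against 0.133% of all probe sets tested (7 of 5244). At an unadjusted p under 0.05 limma gave 1 of the 14 (Got2), against 7.88% of all. The adjusted p-values of the 14 lay between 0.581 and 0.981.

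**Figure D1:**
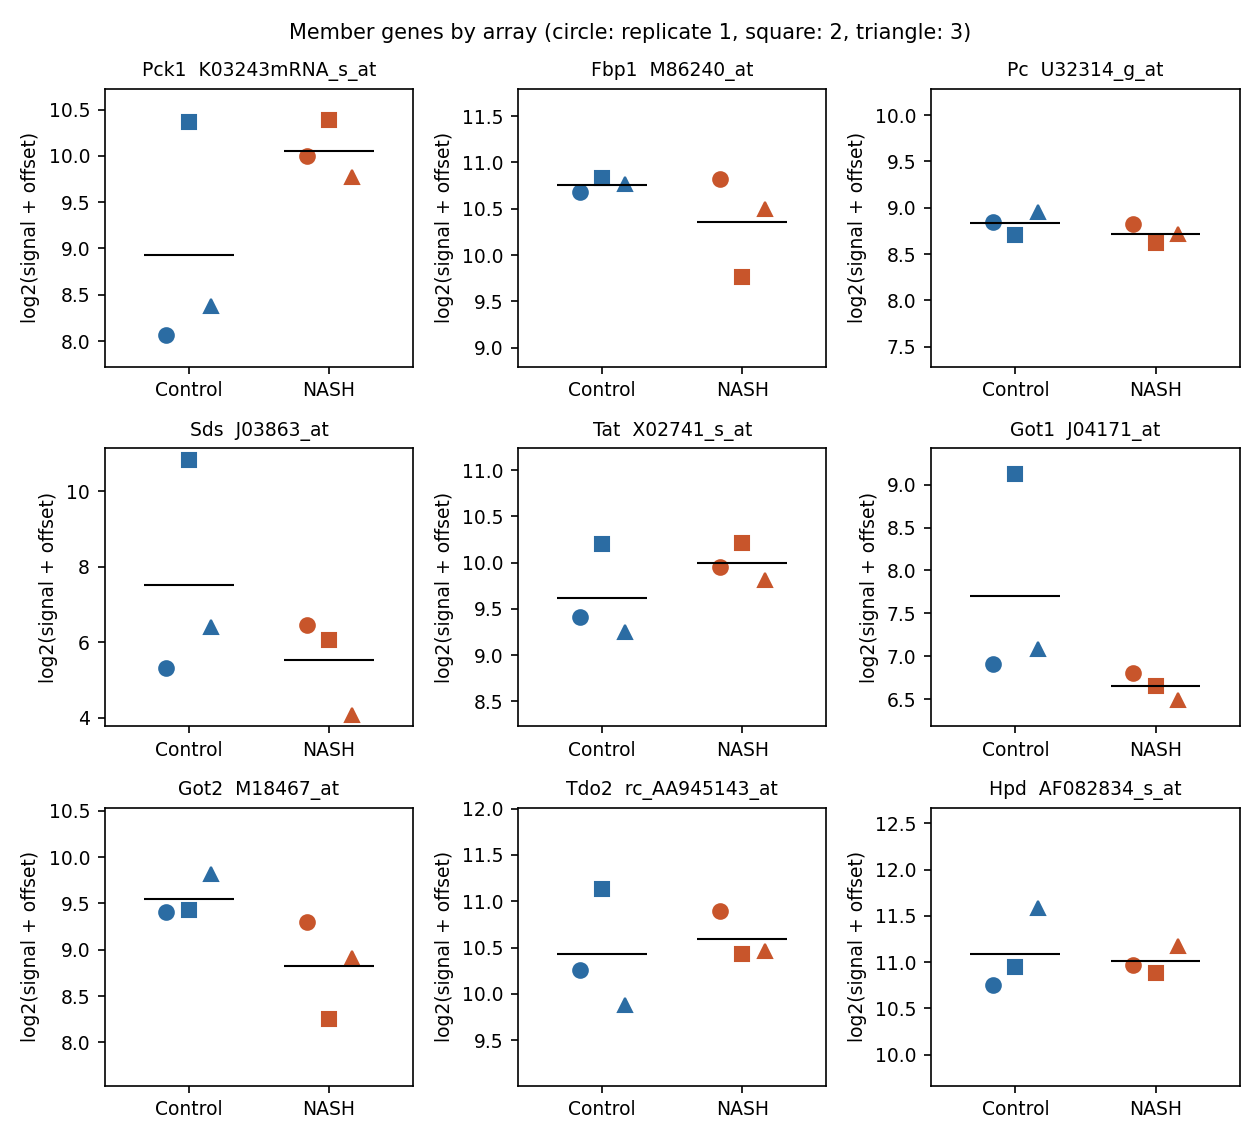
Log2 signal (vertical axis, its span differs between panels) of the brightest probe set of each of the 9 genes, for 3 Control (blue) and 3 NASH (orange) arrays, with the group mean as a black line. Control 2, the blue square, lies far above the other Control arrays for Pck1, Sds and Got1, whereas the 3 Control values of Fbp1 span only 0.15.

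Pck1 had 1 probe set, K03243mRNA_s_at. Its level was 8.06 in Control 1, 10.37 in Control 2 and 8.37 in Control 3, and 10.0025, 10.39 and 9.78 in NASH 1, 2 and 3. The NASH livers were thus alike and high, and the Control livers fell apart into a pair of low values and 1 value within 0.02 of the highest NASH liver. The difference was 1.12 ± 0.55 (standard error, n = 3 per group, 95% interval −0.14 to 2.39), or 2.18-fold, with a limma adjusted p of 0.618. Deposited signals show the same order of groups without any normalization, 327, 1195 and 336 in Control against 1135, 1178 and 682 in NASH.

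The diet difference of Pck1 rests on how Control 2 is counted. Without that array it was 1.83 ± 0.24 (interval 1.27 to 2.39), with a limma adjusted p of 0.0621, the smallest among the members in that fit and still not past the threshold. Leaving out Control 1 instead gave 0.68. The instrument record of the washing step is filled in for Control 1, Control 3, NASH 1 and NASH 2, and blank for Control 2 and NASH 3. Among the arrays with a filled record the mean difference in Pck1 level was 1.98, and between the pair with a blank one it was −0.59. Within Control, that record cannot be told apart from Control 2 itself, the only Control array with a blank one. In NASH the array with a blank record, NASH 3, read lowest of its group, at 9.78, where Control 2 read highest of its own. The part of the record in these values was not tested.

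Fbp1, on the way from phosphoenolpyruvate to glucose, showed the opposite spread. Its Control levels were 10.68, 10.83 and 10.77, a range of 0.15 that 94.9% of all tested probe sets matched or exceeded. Its NASH levels were 10.82, 9.76 and 10.50 in NASH 1, 2 and 3. NASH 1 lay among the Control livers and NASH 2 lay lowest by far, so the groups overlapped. The difference was −0.40 ± 0.25 (interval −0.99 to 0.19, limma adjusted p = 0.696), and −0.10 without NASH 2.

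Pc, the entry step from pyruvate, was the steadiest member. Its probe set U32314_at read 7.88, 7.86 and 7.89 in Control and 7.90, 7.75 and 7.91 in NASH, and its brighter probe set U32314_g_at read 8.85, 8.70 and 8.95 against 8.82, 8.61 and 8.72. The Control range of the first, 0.03, was matched or exceeded by 99.8% of all tested probe sets. Differences were −0.02 (interval −0.42 to 0.38) and −0.12 (interval −0.51 to 0.28), with limma adjusted p-values of 0.981 and 0.882.

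Sds turns serine into pyruvate and ammonia. Its brightest probe set, J03863_at, read 5.33 in Control 1, 10.84 in Control 2 and 6.39 in Control 3, and 6.46, 6.06 and 4.07 in NASH 1, 2 and 3. Control 2 was the only liver with a high level, 21.8-fold above the next Control array, and the lowest was NASH 3. Deposited signals were 43.3, 1691 and 81.4 in Control against 93.4, 66.2 and 10.6 in NASH. A second probe set, J03865mRNA_f_at, whose name marks probes shared by similar sequences, read 5.06, 9.49 and 5.65 against 5.97, 6.29 and 5.72, and here Control 2 was 14.3-fold above the next Control array.

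The third Sds probe set, X13119cds_s_at, was too dim on average to be tested. Its deposited signals were 2.99, 404 and 3.26 in Control and 2.32, 2.87 and 2.82 in NASH. The highest reading of all 3 Sds probe sets was thus in the same liver. No fold is given for this one, since the other 5 arrays lay near the offset.

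As a diet comparison Sds gave wide limits. The difference was −1.99 ± 1.32 for J03863_at (interval −5.05 to 1.06, limma adjusted p = 0.710) and −0.74 ± 1.01 for J03865mRNA_f_at (adjusted p = 0.868). Without Control 2 the first was −0.34 and the second turned to 0.65, with limma adjusted p-values of 0.883 and 0.531. Among arrays with a filled wash record, J03863_at differed by 0.40 in group means. Leaving out Control 2 alone thus turned the sign of J03865mRNA_f_at, and that of J03863_at turned only when NASH 3 was left out with it.

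The 2 aspartate aminotransferases, which pass amino groups between aspartate and glutamate in the cytosol and in mitochondria, behaved differently from each other. Got1, probe set J04171_at, read 6.91, 9.12 and 7.08 in Control and 6.81, 6.66 and 6.49 in NASH. Control 2 was 4.11-fold above the next Control array, and the remaining 5 livers spanned 0.59. The NASH livers were all below the Control livers, but by only 0.10 between NASH 1 and Control 1. The difference was −1.05 ± 0.54 (interval −2.30 to 0.19, limma adjusted p = 0.623), and −0.35 ± 0.21 without Control 2 (adjusted p = 0.625).

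Got2, with its bright probe set M18467_at, read 9.40, 9.43 and 9.82 in Control and 9.30, 8.25 and 8.91 in NASH. Control 2 did not stand out, and the wider spread lay in the NASH group, where NASH 2 was lowest. The groups did not overlap, and the difference was −0.73 ± 0.28 (interval −1.38 to −0.08, limma unadjusted p = 0.0325, adjusted p = 0.581). Without NASH 2 it was −0.44. The dimmer probe set rc_AA892012_g_at had a difference of 0.08 and read 6.14, 5.43 and 4.84 in Control against 5.80, 5.48 and 5.35 in NASH, so it did not share the pattern of M18467_at, and its range was wider in Control (1.30) than in NASH (0.46). The other, rc_AA892012_at, was too dim to be tested, with deposited signals of 2.61 to 7.90 over the 6 arrays and a wider range in Control too (1.44 against 0.74).

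Tat starts the breakdown of tyrosine. Its probe set X02741_s_at read 9.42, 10.20 and 9.26 in Control and 9.96, 10.21 and 9.81 in NASH. As with Pck1, Control 2 lay with the NASH livers and the other Control livers lay below them, but the steps were smaller, 1.72-fold between Control 2 and the next Control array. The difference was 0.37 ± 0.26 (interval −0.23 to 0.97, limma adjusted p = 0.724), and 0.65 ± 0.19 without Control 2 (interval 0.21 to 1.10, adjusted p = 0.431).

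Tdo2 opens the tryptophan ring and is held in the textbook as a glucocorticoid target of liver. Its probe set rc_AA945143_at read 10.26, 11.14 and 9.88 in Control and 10.89, 10.43 and 10.47 in NASH. Control 2 was the highest of all 6 livers and Control 3 the lowest. The difference was 0.17 ± 0.31 (limma adjusted p = 0.909). It was 0.52 without Control 2 and −0.10 without Control 3, and −0.000295 with the signals as deposited, so its sign is not settled.

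Hpd acts after Tat in tyrosine breakdown. Its brightest probe set, AF082834_s_at, read 10.75, 10.95 and 11.58 in Control and 10.97, 10.89 and 11.17 in NASH. For Hpd it was Control 3, not Control 2, that was highest, in all 3 probe sets. The second bright probe set, rc_AA866302_g_at, read 10.46, 10.88 and 11.75 in Control and stayed within 0.09 over the NASH livers. Differences were −0.08 and −0.27 for these, and −0.63 for the dim rc_AA866302_at, whose groups did not overlap (4.72 to 5.73 in Control, 4.29 to 4.64 in NASH). Limma adjusted p-values were 0.934, 0.831 and 0.618.

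**Figure D2:**
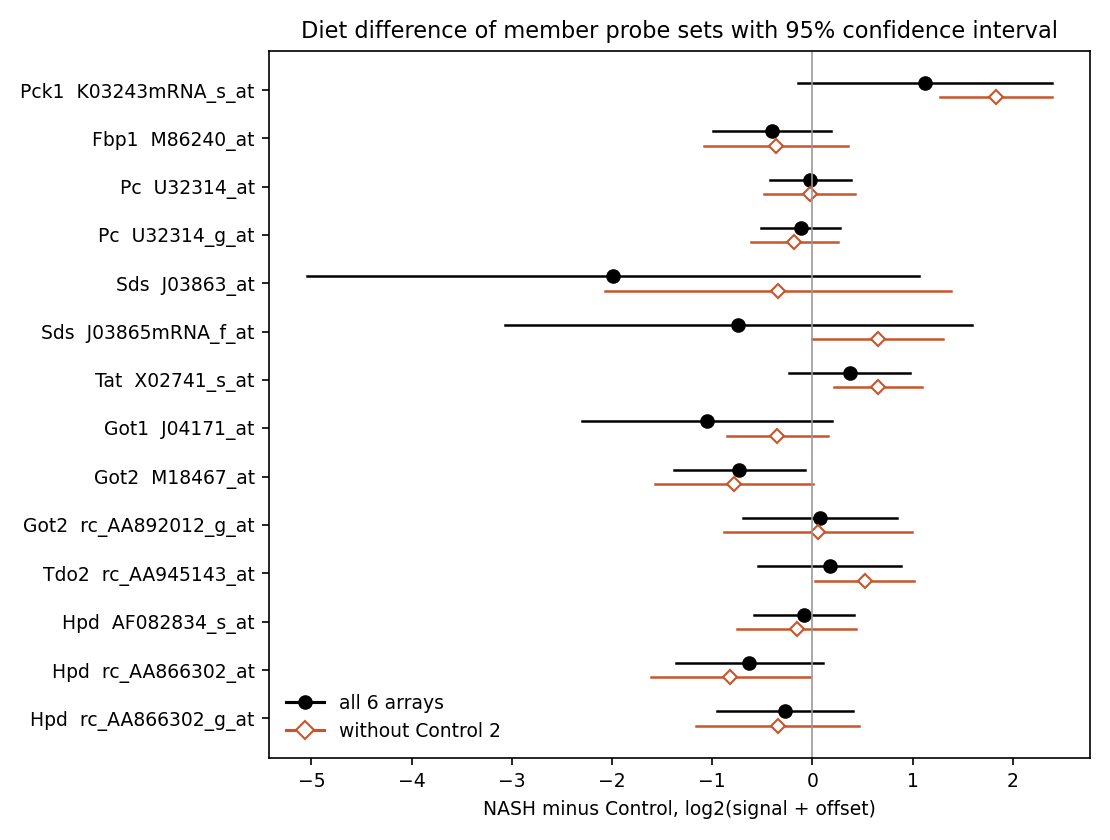
NASH minus Control difference in log2 signal (horizontal axis) of the 14 tested member probe sets, with 95% confidence intervals from limma, for all 6 arrays (black circles) and without Control 2 (orange diamonds). Without Control 2 the interval of Pck1 narrows to 1.27 to 2.39 and the Sds probe sets move from −1.99 and −0.74 to −0.34 and 0.65.

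Over the 9 genes, each by its brightest probe set, the median difference was −0.12, against −0.02 over all tested probe sets, and 6 of 9 were below 0, against 52.9% of all. Groups did not overlap for 3 of 14 member probe sets, all lower in NASH (Got1, Got2 and the dim Hpd probe set). Over all probe sets tested, 7.76% were lower without overlap and 6.56% were higher without overlap, where the members had 0. Without Control 2, 4 of 14 member probe sets had a limma unadjusted p under 0.05 (Pck1, Tat, Tdo2 and the dim Hpd probe set). The share of all probe sets in that fit was 9.5%, and 0 members passed an adjusted p under 0.05. This was the highest such member count with 1 array left out. It was 1 without Control 1 (9.74% of all), 2 without NASH 1 (7.53%) and 0 without Control 3 (7.91%), NASH 2 (5.66%) or NASH 3 (5.07%).

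The spread within Control was wider than within NASH for 7 of the 9 genes, and for 64.4% of all tested probe sets. The median Control range was 0.94 for the members and 0.63 for all tested probe sets, and the median NASH range was 0.47 and 0.44. Without Control 2 the median Control range, now over 2 arrays, was 0.32 for the members and 0.34 for all tested probe sets, so the excess of the members rested on that liver. Control ranges as wide as that of Sds (5.51) were found in 0.0763% of all tested probe sets, as wide as that of Pck1 (2.31) in 2.33% and as wide as that of Got1 (2.21) in 2.84%. Tdo2, with 1.26, and Tat, with 0.94, were less unusual, at 14.1% and 25.9%. The exceptions, with a wider range in NASH by the brightest probe set, were Fbp1 and Got2. Since the members were proposed with the high Sds of Control 2 already known, these ranges and shares describe the genes and test nothing.

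**Figure D3:**
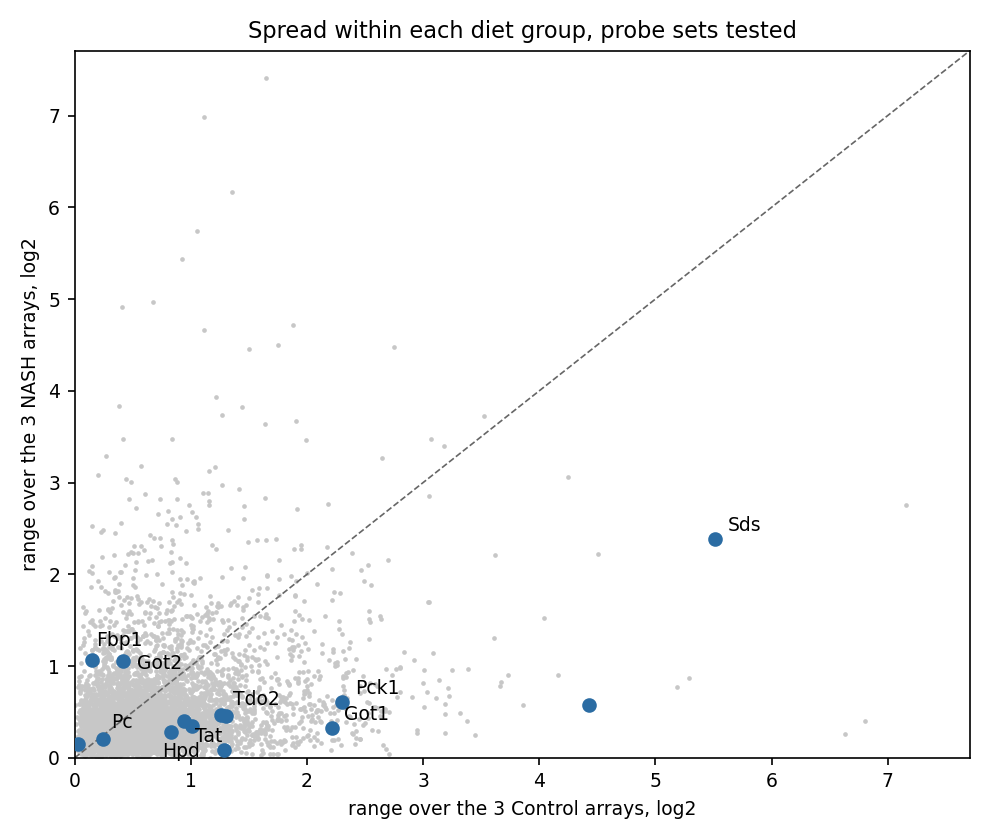
Range of log2 signal over the 3 Control arrays (horizontal axis) against the range over the 3 NASH arrays (vertical axis) for the 5244 tested probe sets (grey) and the 14 member probe sets (blue, the brightest of each gene named), with the line of equal ranges dashed. Sds, Pck1 and Got1 lie far right with Control ranges of 5.51, 2.31 and 2.21, and Fbp1 and Got2 lie above the line.

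Control 2 was at least 2-fold above both other Control arrays in 4 of 14 member probe sets (2 of Sds, and those of Got1 and Pck1), and in 1.89% of all tested probe sets. It was at least 4-fold above them in 3 of 14 (Sds and Got1), against 8 of the 5244 probe sets tested (0.153%), these 3 included. Probe sets too dim to be tested, such as the third of Sds, are not in this count. Pck1 lay just outside at 3.98-fold. The members were proposed with the high Sds of Control 2 already known, so these counts describe the genes and test nothing. Control 2 was the highest of the 6 arrays for 5 of 14 member probe sets, against 23.9% of all. NASH 2 was the lowest for 4 of 14 (both of Pc, Fbp1 and Got2), and for 20.3% of all.

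Among the other enzymes of the same pathways, 3 of 84 tested probe sets (46 genes in 4 lists) were at least 2-fold above both other Control arrays in Control 2, and 0 were 4-fold above. These were Mat1a, which makes S-adenosylmethionine (9.10 against 7.81 and 7.23), the liver glutaminase Gls2 (8.34 against 7.24 and 7.22) and 1 of 3 probe sets of glutamate dehydrogenase, Glud1 (6.04 against 3.78 and 4.55). Pfkfb1, with 1 of 4 probe sets, and Pgk1, with 2, were at least 2-fold below both. Another Pfkfb1 probe set was highest in Control 2 among the Control arrays, by less than 2-fold (5.67 against 3.83 and 4.72). Among 33 probe sets of hormone receptors, signalling proteins and transcription factors that act on these enzymes, 1 was above (Cebpd, 6.14 against 5.08 and 4.85) and 1 of Stat3 below. Of 23 probe sets of hormone-responsive genes, 1 of Zfp36 was above and 1 of Pdk4 below. Among 9 probe sets of 7 tested clock factors, 3 were above (Nr1d1, Nr1d2 and Tef), and both of Bmal1 and that of Bhlhe40 were below. Of 18 probe sets of brown fat and muscle markers 3 were above (Acta1, Ckm and Casq1), as was 1 of 42 of hepatocyte markers (Cyp2e1), and among 10 of kidney and intestine markers that of Fabp2 was below. The share of all tested probe sets at least 2-fold below was not counted, so how common such falls were is not known. The untested clock output factor Dbp, named here after its values were seen, read 7.10 in Control 2 and 2.72 to 3.51 in the other arrays. Between the diets 3 of the 7 tested clock genes were higher, 4 were lower and 0 were called, by their brightest probe sets. Per2 differed by −0.89 (limma adjusted p = 0.581). Bmal1 differed by 0.93 with its brightest probe set and by 0.86 with the other (limma adjusted p = 0.836 and 0.808). Both of these were lowest of all arrays in Control 2, at 2.06 and 2.33. Hlf differed by 0.57 with 1 tested probe set and by −0.83, without overlap, with the other (limma adjusted p = 0.618 for both). These readings stand beside the high Sds, Got1 and Pck1 of that liver, and the part of the clock or muscle genes in that result was not tested. All genes of this paragraph other than those the lists' smallest p-values name were chosen after their values were seen.

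Genes of a list are counted by their brightest probe set in what follows. Of 19 other glucose output enzymes listed, 12 were measured and 11 were tested, 4 higher and 7 lower in NASH and 0 called. The glucose-6-phosphate transporter Slc37a4, which serves the last step of glucose release, had the smallest p. It read 8.85, 9.27 and 8.79 in Control and 8.25, 7.65 and 7.77 in NASH, a difference of −1.08 ± 0.23 (limma adjusted p = 0.228), and its other probe set gave −0.98. Pfkfb1, which sets the level of a glycolysis activator, differed by −0.96 with 1 of 4 probe sets and by −0.15 at the other extreme. The mitochondrial carrier Slc25a11 differed by −0.63 with 1 probe set and by 0.003 with the other. The probe sets annotated with the glucose-6-phosphatase gene carry several symbols and were not used.

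Of 8 tested genes for tyrosine, phenylalanine and tryptophan breakdown outside the members, 2 were higher, 6 were lower and 0 were called. Haao, a later enzyme on the tryptophan path that Tdo2 opens, read 9.37, 9.47 and 9.83 in Control and 9.03, 8.80 and 9.08 in NASH. The groups did not overlap and the difference was −0.58 ± 0.19 (limma adjusted p = 0.503), with −0.61 for its other probe set. Fah, the last enzyme of tyrosine breakdown, differed by −0.26, and the 3 tested probe sets of Gch1 by −0.42 to 0.35.

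For serine, glycine, threonine and sulphur amino acids, 13 genes were tested, 4 higher, 9 lower and 0 called. The D-amino acid oxidase Dao had non-overlapping levels of 7.99, 7.64 and 7.75 against 7.08, 6.44 and 7.13, a difference of −0.91 ± 0.25 (limma adjusted p = 0.437). Ahcy, which hydrolyses S-adenosylhomocysteine, differed by −0.86 and was lowest in NASH 2 (8.26, where NASH 1 read 9.56 and NASH 3 read 9.45). Agxt, which moves the amino group of alanine to glyoxylate, differed by 0.82 with 1 of 6 probe sets and by −0.004 at the other extreme.

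In the list of other amino acid breakdown enzymes, 14 were tested, 4 higher, 10 lower and 0 called. The alanine aminotransferase Gpt differed by −0.52 (limma adjusted p = 0.621), Glud1, glutamate dehydrogenase, by −0.89 to −0.20 over its 3 probe sets, and Oat by −0.42 with 1 probe set and by 0.25 with the other. Over the 4 lists together, 32 of 46 tested genes had differences below 0, with a median of −0.12, against 52.9% and −0.02 over all tested probe sets. Their median Control range was 0.62, against 0.63.

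**Figure D4:**
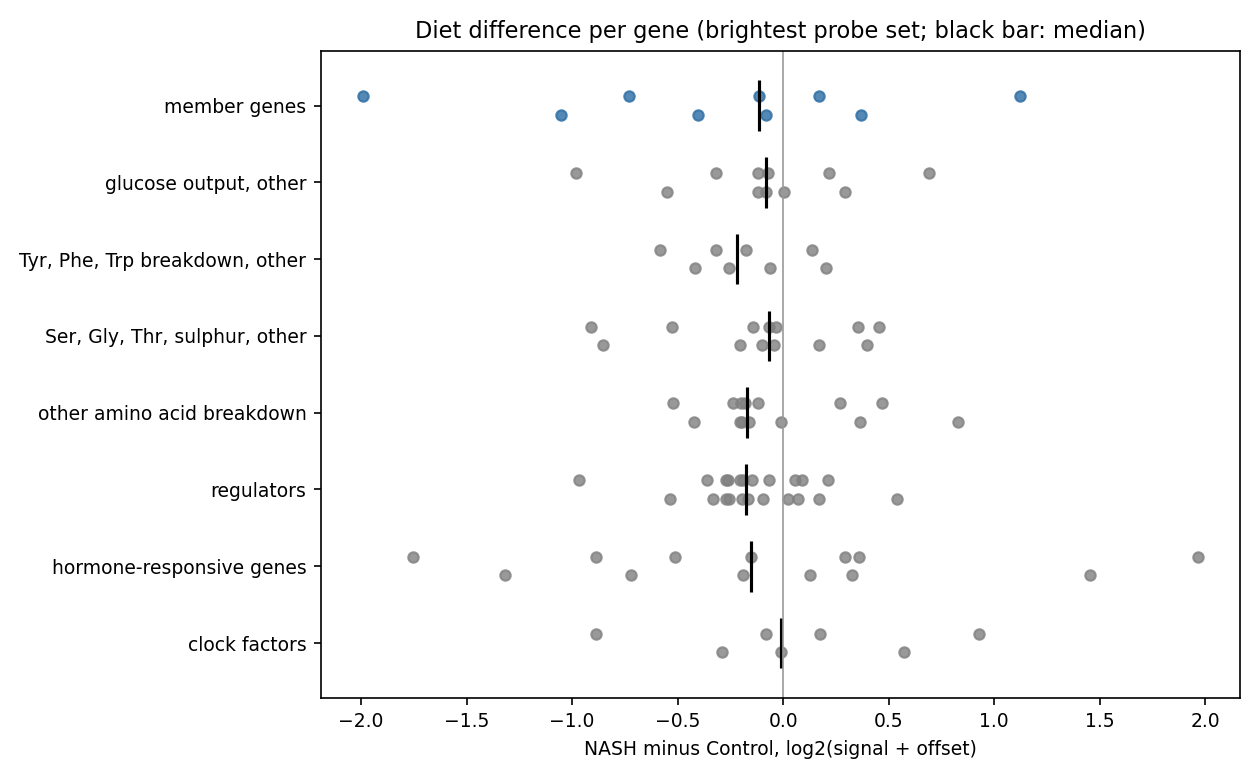
NASH minus Control difference in log2 signal (horizontal axis) of each tested gene by its brightest probe set, for the 9 member genes (blue) and 7 gene lists (grey), with the median as a black bar. The members span −1.99 (Sds) to 1.12 (Pck1) around a median of −0.12.

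Among regulators of these enzymes, 22 genes were tested, 7 higher, 15 lower and 0 called. The glucocorticoid receptor Nr3c1 read 6.35, 6.70 and 6.53 in Control and 5.99 in each of the 3 NASH livers. Its difference was −0.54 ± 0.19 (limma adjusted p = 0.542), and a second probe set gave −0.66, also without overlap. Foxa2, a forkhead factor of liver, differed by −0.97 and the retinoid X receptor Rxra by 0.54 (adjusted p = 0.503 and 0.618). The glucagon receptor Gcgr read 6.68, 6.88 and 7.15 against 6.81, 6.45 and 6.64.

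Genes known to respond to glucocorticoids or cyclic AMP in liver did not move one way. Of 13 tested, 6 were higher and 7 lower, and 1 passed the test. Igfbp1, which like Pck1 is lowered by insulin, fell from levels of 6.51, 7.004 and 6.89 to 5.18, 4.92 and 5.04, a difference of −1.75 ± 0.21 (limma adjusted p = 0.0342). Its difference stayed between −1.87 and −1.69 when each array was left out in turn, but 0 of these 6 limma fits called it (adjusted p 0.0621 to 0.225). Dusp1, a phosphatase, differed by −1.32 (adjusted p = 0.0881). Cyp2b2 differed by 1.46 (adjusted p = 0.393). In Control 2, Igfbp1 read 7.004, near the other Control livers, where Pck1 read as in NASH.

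The labelled tissue was checked by hepatocyte markers, of which 19 of 20 were measured and all 19 were bright enough to be tested. Their summed signal was 67540 to 72802 in Control and 67673 to 69506 in NASH, with the highest array 1.08-fold above the lowest. These are sums of quantile-normalized signal, and that step gives every array the same set of values. Sums over very bright probe sets are thus held nearly equal and cannot show whether the cell content of Control 2 differed. Markers of brown fat and skeletal muscle summed to 585 to 752 in Control, 645 in NASH 1 and 763 in NASH 3 but 6869 in NASH 2, where 18 of 20 measured markers were highest. What raised these markers in NASH 2 was not tested. NASH 2 is also the liver with the lowest Fbp1 and Got2 by their brightest probe sets, and any link of those values to the markers was not tested. In a tissue sample, fewer cells of a type and less RNA per cell cannot be told apart. Kidney and intestine markers, tissues that also make Pck1 and Fbp1, summed to 843 to 1039 in Control and 1027 to 1251 in NASH, and 3 of the 11 measured were below the filter. Over the 6 arrays the 2% trimmed mean of deposited signal lay between 73.6 and 117.

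For Sds, Pck1 and Got1, the members with the widest Control ranges, the tested probe sets with the most similar pattern over the 6 arrays were listed by Pearson's r. Those nearest to Pck1 were Dock8 (r = 0.99), Gtf2ird1 (0.98), Plcb2 (0.98), Scn7a (0.97) and Il10 (0.97), with Ppp1r10 the most opposite (−0.99). For Sds they were Gnai2, Vps33b, Epn2, Alb and Fbxl17l1 (r from 0.97 to 0.98), with Abtb2 the most opposite (−0.99), and for Got1 they were Ltbp1, Fam216a, Med25, Arl6ip4 and Epn2 (0.98 to 0.99), with Smad2 the most opposite (−0.996). Several of these genes varied little, for example Dock8 between 5.96 and 6.25. They are the extremes among all tested probe sets with 1 gene symbol that is not a member, compared over 6 arrays. The 2 arrays farthest from the median were Control 2 and NASH 3 for Sds and Got1, and Control 1 and Control 3 for Pck1. Without those 2, r over the 5 similar genes ran from 0.66 (Epn2) to 0.98 (Vps33b) for Sds. It ran from 0.45 (Scn7a) to 0.95 (Dock8) for Pck1 and from 0.17 (Arl6ip4) to 0.76 (Med25) for Got1.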

How the data were processed

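Liver RNA of 6 samples was measured on 1 array each. Groups and replicate numbers come from the sample titles, because the description field carries the wording of Control 1 for all 6. The deposited values are linear signal intensities per probe set, made with MAS5 per the submitters' processing notes; no source used here gives its version, scaling target or background setting. Per the file headers, the other deposited files are instrument records (unit: other) and were read only for the wash entry.

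The table lists 8799 probe sets, including 59 array controls that were dropped. Of the remaining 8740, 7006 had 1 gene symbol in the platform annotation, 308 several and 1426 none. Signals were quantile normalized, an offset of 2.28 (their 10th percentile) was added and log2 taken, which understates changes of dim probe sets. The test covered the 5244 probe sets whose mean log2 exceeded 3.95, the 40th percentile. It used limma 3.58.1 in R 4.3.3 (lmFit and eBayes, trend on intensity, with degrees of freedom of 4 residual plus 3.90 prior) and Benjamini-Hochberg adjustment. The script was tested on simulated data. With 3 arrays per group, the number of arrays limits the precision.

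The members and lists were chosen with earlier results of these data known. All member probe sets are described. From each list other than the marker lists the 3 genes with the smallest unadjusted p are named. For the 3 members with the widest Control range, the 5 probe sets most alike and the 1 most opposite by Pearson's r are named, and any other gene was named after its values were seen. Of the marker lists, hepatocyte, brown fat and muscle, and kidney and intestine genes were summed per array. Each array was left out in turn, and other settings were tried for the filter, the offset, the scaling, the prior, the weights of arrays, the threshold and the probe set of a gene, with blocks for replicate number and wash record.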

Additional observations from a re-analysis of the deposited data

How the results depend on the processing

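No member probe set was called in any setting run. Of 279 refitted member differences, 97 come from settings that leave the difference itself as it is (filters, variance prior, blocks), and of the other 182, 163 kept their direction and 19 reversed. Over all features tested, limma called 7 probe sets. The count was 14 with the signals as deposited, 3 without the intensity trend, 18 with array weights, 3 with the wash record as a block and 14 at an adjusted p under 0.1. It was 0 without the filter, where 635 had an unadjusted p under 0.05. Leaving out each array gave 0 to 17 (17 without NASH 2, 1 without Control 2 or NASH 1, 0 without any of the others). After seeing the data, leaving out Control 2 with NASH 2 was tried (16 called), as was using only arrays whose wash record is filled (1 called). Same-numbered arrays correlated at 0.0483, −0.0212 and 0.0731 in their deviations from the group means, and the other pairs at −0.130 to 0.0843. With 3 arrays per group this does not settle whether same-numbered samples were handled together. With the replicate block 1 probe set was called, and the Pck1 difference of 1.12 had an adjusted p of 0.567. Igfbp1 lost its call with that block (adjusted p = 0.140), without the filter, without the trend and with the wash record block.

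The median Control range of the members was 0.94 and ran from 0.32 (without Control 2) to 0.94 with 1 Control array left out. Reversed signs were all of differences that missed the threshold. With array weights the difference was −0.27 for Got2 rc_AA892012_g_at, 0.13 for Hpd AF082834_s_at, 0.0191 for Hpd rc_AA866302_g_at, 0.00169 for Pc U32314_at and 0.0350 for Sds J03865mRNA_f_at. With signals as deposited it was −0.0774 for Got2 rc_AA892012_g_at and −0.000295 for Tdo2, where the median of all tested probe sets moved from −0.02 to −0.17. Pc U32314_at gave 0.0156 with trimmed mean scaling and 0.0224 without Control 2 and NASH 2. On arrays whose wash record is filled, Sds J03863_at gave 0.40 and J03865mRNA_f_at 0.79, and the latter gave 0.50 without Control 2 and NASH 2. Leaving out each array in turn gave −0.23 to 0.41 for Got2 rc_AA892012_g_at, −0.25 to 0.16 for Hpd AF082834_s_at, −0.55 to 0.0907 for Hpd rc_AA866302_g_at, −0.0482 to 0.0303 for Pc U32314_at, −1.56 to 0.65 for Sds J03865mRNA_f_at and −0.10 to 0.52 for Tdo2. The cause was not tested.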
